A study of Arabidopsis thaliana with 30 samples.

Results

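The 36 genes described here act at the passage from the G1 phase of the cell cycle into S phase and in DNA replication itself. They were taken by locus identifier: the 6 minichromosome maintenance genes MCM2 to MCM7, 7 genes of origin licensing, 7 genes of DNA synthesis and nucleotide supply, 9 cyclin genes of the D and A3 classes with CDKA;1, the inhibitors KRP1 and KRP2, and 4 E2F factors. All 36 were among the 38194 loci counted, and all 36 passed the count filter that kept 21052 loci for testing. RNA was sequenced from leaves 1 and 2 of 10-day-old Arabidopsis thaliana plants of the ecotype Columbia-0, with 18 to 20 detached leaves per sample. The stimulus group received 20 µM bikinin (an inhibitor of GSK3-like kinases that switches on brassinosteroid signalling), the cytokinin kinetin at 0.5 µg/mL and the synthetic auxin 2,4-D (2,4-dichlorophenoxyacetic acid) at 2.5 µg/mL together, so no effect can be assigned to 1 of them. The mock group lay in the same buffer without these compounds, and leaves of both groups were detached, surface-sterilised and kept in 5% glucose and 0.2% dimethyl sulfoxide. Leaves of each group were collected after 6, 7, 8, 9 and 10 h, with 3 biological replicates per treatment and hour, which makes 10 groups and 30 libraries.

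In plant cells a D-type cyclin, made in response to hormones and sugar, joins the kinase CDKA;1 and releases E2F transcription factors from the retinoblastoma-related protein. E2F factors then switch on the genes that license origins and copy DNA. Licensing begins when the origin recognition complex (ORC) with CDC6 and CDT1 loads the ring of MCM proteins, which becomes the replicative helicase. KIP-related proteins (KRP) bind cyclin-kinase complexes and hold them inactive. Cells of a young leaf stop dividing from the tip towards the base, and those of the stomatal lineage are among the last to divide.

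Libraries held 14981271 to 22729166 counts. Replicate 3 of mock had the same counts at 6 h and at 7 h for all loci, so the data held 29 distinct libraries, 14 of them mock, and which hour that library belongs to is not known. It was counted once in ranges over all mock libraries. In values per hour and in pairs by hour and replicate number it stands under both hours. Replicate 3 stood apart from replicates 1 and 2 in every group: plastid loci took 0.556% to 0.872% of its counts and 1.37% to 3.09% of those in replicates 1 and 2. Levels are given as CPM, read counts scaled to a common library size with TMM factors, and differences as log2 fold changes of stimulus over mock ± SE, with Benjamini-Hochberg adjusted p-values of edgeR's quasi-likelihood test over all loci tested and a threshold of 0.05. In such bulk samples a change in the number of cells of a type and a change of RNA per cell cannot be told apart. As markers of leaf tissue, 6 mesophyll genes summed to 5950 to 12123 CPM in stimulus leaves and 9313 to 22115 CPM in mock leaves, and 4 root markers to at most 0.213 CPM in stimulus leaves and 0.334 CPM in mock leaves, with MYB36 and LRX1 at 0.

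Averaged over the 5 hours, most replication genes were higher in stimulus leaves. The median log2 fold change was 0.76 over the MCM genes, 0.86 over the licensing genes and 0.82 over the genes of synthesis and nucleotide supply. Of the 36 genes, 27 were higher, 5 were lower and 4 did not pass the threshold. The rule called 29.7% of all tested loci higher and 27% lower, so a call in itself was common. The median log2 fold change was 0.73 over the 36 genes and 0.02 over all tested loci. All 15 stimulus libraries lay above all 14 mock libraries for 10 of the 36 genes, against 3.71% of tested loci, and below them for 2, against 3.97%. The 10 were MCM3, MCM5, ORC1B, CDT1A, PCNA1, POLA2, RNR1, E2FA, E2FC and E2FE, and the 2 were KRP1 and KRP2. The fit behind the 27 and 5 calls takes the 5 hourly libraries of each replicate number as independent. Counts summed over the 5 hours, which leave 3 sums per treatment, gave 16 genes higher and 2 lower, against 4.56% and 3.65% of loci tested that way. With replicate number as a block these sums gave 23 higher and 2 lower, against 9.41% and 7.03%. The calls lost with the sums, with and without the block, were those of CDC6, CDT1B, CYCD3;1 and CDKA;1 among the higher genes and of RNR2A, CYCD1;1 and CYCD3;2 among the lower ones. Those of MCM2, MCM4, MCM7, ORC1A, ORC3, POLA1 and TSO2 were lost with the sums without the block. Stomatal-lineage markers moved too: 7 of 8 were lower and none higher, and their summed level was 25.5 to 45.9 CPM in stimulus leaves and 71.1 to 95.4 CPM in mock leaves. The part of this shift in the results below was not tested.

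**Figure D1:**
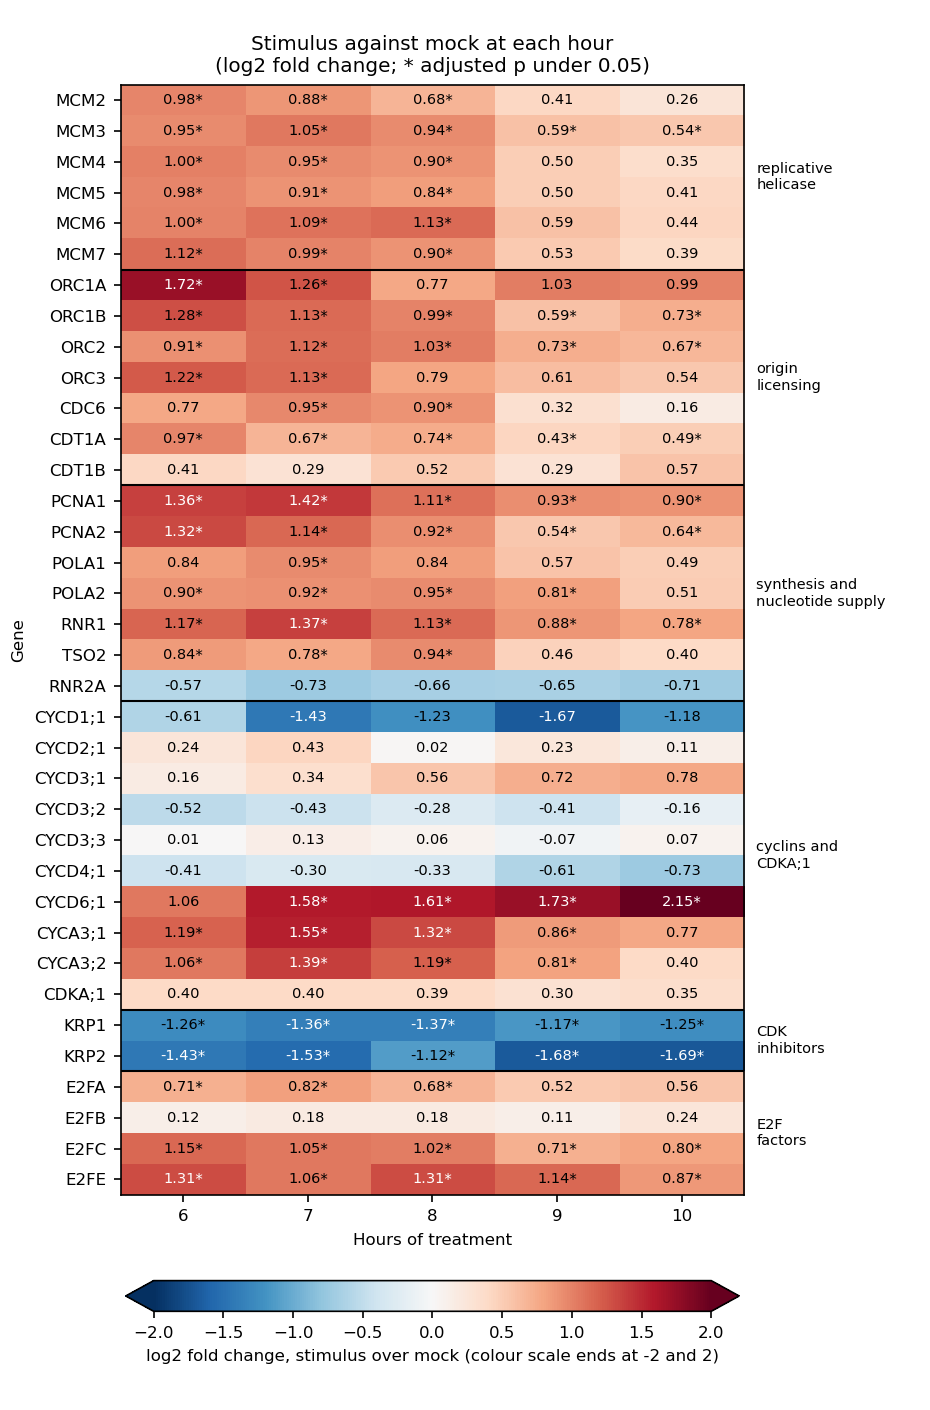
Log2 fold change of stimulus over mock for each of the 36 genes (rows, grouped by role) at 6, 7, 8, 9 and 10 h (columns), with an asterisk where the adjusted p was under 0.05. The MCM rows run from 0.95 to 1.12 at 6 h and from 0.26 to 0.54 at 10 h, and the KRP1 and KRP2 rows are negative and marked at every hour.

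All 6 MCM genes were higher in stimulus leaves, with average log2 fold changes between 0.64 for MCM2 and 0.85 for MCM6, and the other 4 between 0.73 and 0.81. MCM6 (AT5G44635) lay between 19.9 and 35.9 CPM in stimulus libraries, with a median of 28.7, and between 10.2 and 20.2 CPM in mock libraries, with a median of 15.4. The ranges of the groups met only through replicate 3 of the stimulus leaves and replicate 2 of mock at 9 h, and within each hour other than 9 h the groups did not overlap. The log2 fold change of MCM6 was 0.85 ± 0.10 (adjusted p = 2.31e-07). It was higher in 15 of 15 pairs of the same labelled hour and replicate number, with the identical mock library in the pairs of both 6 and 7 h. The labels tie no replicate number to a batch of plants. The share of all tested loci higher in every pair is not given here, so this count only describes MCM6. MCM3 (AT5G46280) and MCM5 (AT2G07690) were the MCM genes whose libraries did not overlap at all. Per kb of exon, levels in stimulus leaves averaged from 9.37 CPM for MCM6 to 19.5 CPM for MCM7, and in mock leaves from 5.35 CPM for MCM6 to 11.7 CPM for MCM7.

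The E2F-type motif stood near the start of most MCM genes. E2F factors of plants and animals bind DNA of the form TTTCCCGC, TTTGGCGC, TTTCGCGC or TTTGCCGC, and these 4 strings were searched on both strands from 250 bases before to 50 bases after each gene's start. Windows of 30 bases around the matches are shown for 5 MCM genes, for 2 other genes that were higher in stimulus leaves and for CYCD3;3, which was not called. They were read from the TAIR10.1 assembly of RefSeq by locus identifier and are written along the gene's strand, with the match in capitals.
MCM2: tggcgccaataTTTCCCGCctaatcgacga
MCM3: ggaaatcaaacGCGCCAAAcaagcgcgtag
MCM4: cagtaataatgGCGCCAAAatcaagtgaag
MCM5: cggcccatcagTTTCCCGCcacattgttcc
MCM6: tatactttttaGCGGGAAAatgttagagga
ORC3: gggtcacgaatTTTCCCGCcaaaaagagcg
RNR1: cctagaagctgGCGGGAAAatcccaaaact
CYCD3;3: aattttctcgcGCGCCAAAcatccgaatat
The MCM windows lie at chr1:16970189-16970218 on the plus strand for MCM2, and on the minus strand at chr5:18773858-18773887 for MCM3, chr2:7130746-7130775 for MCM4, chr2:3527501-3527530 for MCM5 and chr5:18010695-18010724 for MCM6. The other windows lie at chr5:5474305-5474334 for ORC3 and chr2:9293260-9293289 for RNR1, both on the plus strand, and at chr3:18566920-18566949 on the minus strand for CYCD3;3. Matches began 14, 19, 35, 46 and 170 bases before the start in MCM2, MCM5, MCM4, MCM6 and MCM3.

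A match stood in 5 of the 6 MCM windows, in 3 of 7 licensing genes, in 3 of 7 synthesis genes and in 1 of 10 cyclin and CDKA;1 windows, 12 of 36 or 33.3% in all. Of all 27443 protein-coding windows 1.76% held one, and of the 19346 tested among them 1.9%. The licensing genes with a match included ORC2 and ORC3, and the synthesis genes were POLA1, POLA2 and RNR1. POLA1 held 2 matches that did not overlap, and each other gene held 1. None was found in the windows of KRP1, KRP2 and the 4 E2F genes, nor in the 27 windows of a list of G2/M and cytokinesis genes. The relation of a match to the response was not tested. PCNA1 had none and an average log2 fold change of 1.14, and CYCD3;3 had 1 and a log2 fold change of 0.04 ± 0.07 (adjusted p = 0.633).

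**Figure D2:**
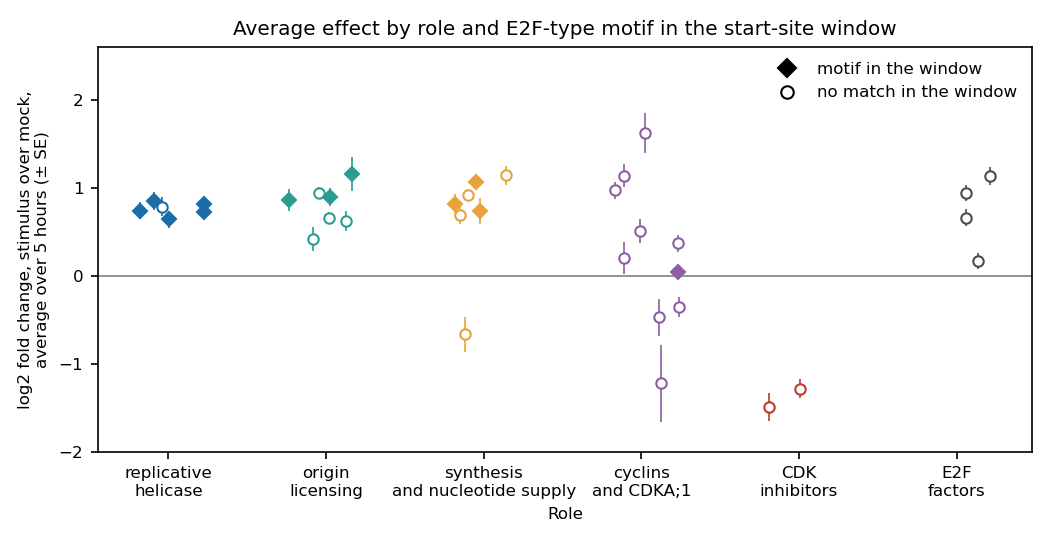
Average log2 fold change of stimulus over mock over 5 hours (vertical axis, bars of 1 SE) for the 36 genes by role, with filled diamonds for genes whose start-site window held an E2F-type motif and open circles for the others. Diamonds and circles overlap in height within the licensing and synthesis groups, and the diamond near 0 among the cyclins is CYCD3;3.

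All 7 licensing genes were higher in stimulus leaves. The log2 fold changes ran from 0.42 ± 0.13 for CDT1B (adjusted p = 0.0098) to 1.15 ± 0.19 for ORC1A (adjusted p = 2.74e-05). On counts summed over the hours CDT1B had an adjusted p of 0.274, or 0.101 with the replicate block, and CDC6 0.0597, or 0.0539 with it, so neither call held there. ORC1A (AT4G14700), 1 of 2 genes for the largest ORC subunit, lay between 1.92 and 3.94 CPM in stimulus libraries, median 3.09, and between 0.45 and 2.28 CPM in mock libraries, median 1.54. Only the lowest stimulus library, replicate 3 at 9 h, fell inside the mock range. Its paralog ORC1B (AT4G12620) was more abundant, at 6.03 ± 0.58 CPM per kb in stimulus leaves and 3.21 ± 0.55 in mock leaves (SD, n = 15 and 14), where ORC1A had 1.22 ± 0.21 CPM per kb in stimulus leaves and 0.58 ± 0.23 in mock leaves. ORC1B lay between 13.9 and 20.5 CPM in stimulus libraries and between 6.91 and 11.8 CPM in mock libraries, with no overlap and a log2 fold change of 0.94 ± 0.06 (adjusted p = 2.39e-11). ORC1A and ORC1B share 8.8% of the 31-base words of ORC1A, and 919 bases of ORC1A are overlapped by genes on the opposite strand, so the value of ORC1A is the less certain. ORC2 and ORC3, further subunits of the complex, had 0.89 ± 0.10 and 0.86 ± 0.13. The loading factor CDT1A (AT2G31270) had 0.66 ± 0.07 and CDC6 (AT2G29680) 0.62 ± 0.11, and CDT1A libraries did not overlap.

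Of 7 genes of synthesis and nucleotide supply, 6 were higher in stimulus leaves and RNR2A was lower. PCNA1 (AT1G07370) encodes the sliding clamp that tethers the replicative polymerases. It lay between 15.6 and 22.9 CPM in stimulus libraries, median 19.3, and between 6.29 and 15.3 CPM in mock libraries, median 7.86. The groups did not overlap, although the highest mock library, replicate 3 at 8 h, came close, and the log2 fold change was 1.14 ± 0.11 (adjusted p = 9.67e-09). The second clamp gene, PCNA2 (AT2G29570), had a log2 fold change of 0.91 ± 0.07 (adjusted p = 1.95e-10). Per kb, PCNA2 averaged 22.4 ± 2.66 CPM and PCNA1 17.3 ± 1.98 CPM in stimulus leaves (SD, n = 15). POLA1 and POLA2, subunits of the polymerase that makes the primers, had log2 fold changes of 0.74 ± 0.14 and 0.82 ± 0.11.

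The subunits of ribonucleotide reductase, the enzyme that supplies deoxyribonucleotides, did not move together. RNR1 (AT2G21790), the large subunit, averaged 152.2 ± 19.3 CPM in stimulus leaves and 73.1 ± 15.7 CPM in mock leaves (SD, n = 15 and 14), without overlap between the groups. The small-subunit gene TSO2 (AT3G27060) had the highest level of the 36 genes per kb of exon, 105.3 ± 18.7 CPM in stimulus leaves and 67.9 ± 16.1 CPM in mock leaves, and a log2 fold change of 0.69 ± 0.10 (adjusted p = 3.76e-06). RNR2A (AT3G23580), another small-subunit gene, lay at 7.31 ± 2.70 CPM per kb in stimulus leaves and 11.4 ± 3.21 in mock leaves. Its log2 fold change of -0.67 ± 0.20 (adjusted p = 0.00611) rested on replicate 3. In replicate 3 RNR2A lay between 5.43 and 9.17 CPM in stimulus leaves and between 24.7 and 26.8 CPM in mock leaves. In replicates 1 and 2 it lay between 12.1 and 18.8 CPM in stimulus leaves and between 11.7 and 22.7 CPM in mock leaves. The groups were thus far apart in replicate 3 and overlapped in replicates 1 and 2, where the log2 fold change was -0.11 ± 0.05 (adjusted p = 0.0907).

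**Figure D3:**
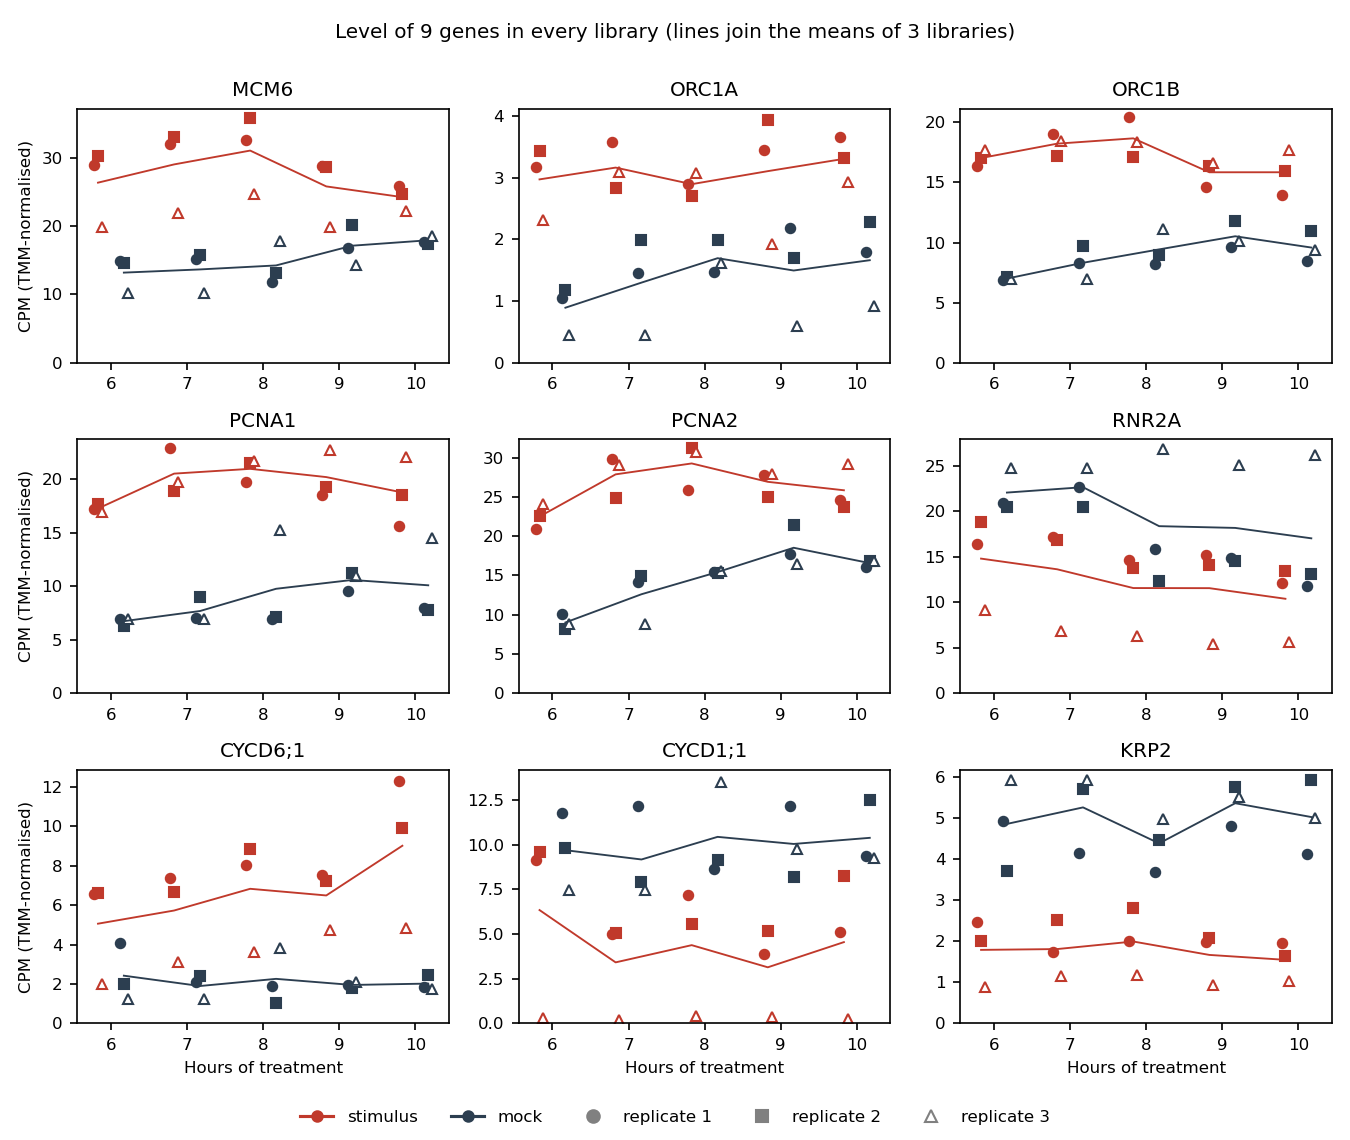
TMM-normalised CPM of 9 genes in every library (points; replicate 3 as open triangles) against hours of treatment, stimulus in red left of mock in dark blue, with lines through the means of 3 libraries. The mock triangles at 6 and 7 h are 1 library. ORC1B, PCNA1 and KRP2 separate the treatments in every library, and the stimulus triangles of RNR2A and CYCD1;1 stand apart from the other stimulus points.

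The D-type cyclin genes split: CYCD6;1 and CYCD3;1 were higher in stimulus leaves, CYCD1;1 and CYCD3;2 were lower, and CYCD2;1, CYCD3;3 and CYCD4;1 did not pass the threshold. CYCD6;1 (AT4G03270), known in roots for formative divisions of the ground tissue, had the largest log2 fold change of the 36 genes, 1.63 ± 0.23 (adjusted p = 2.72e-06). It lay between 2.02 and 12.3 CPM in stimulus libraries, median 6.67, and between 1.05 and 4.06 CPM in mock libraries, median 1.97. The lowest stimulus libraries, all of replicate 3, overlapped the highest mock libraries, and 14 of 15 pairs were higher. A gene on the opposite strand overlaps CYCD6;1 over 847 bases of its span, introns included. That gene held 61111 counts over all libraries, against 2641 for CYCD6;1. How many of the overlapped bases are exonic was not determined. MCM7, PCNA2, POLA1, RNR2A and E2FE are also overlapped on the opposite strand, over 437, 279, 1326, 153 and 307 bases. The library kit keeps strand, but the strand setting of the counting is not given in the sources used here.

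CYCD3;1 (AT4G34160), a cyclin that responds to cytokinin in Arabidopsis, had a log2 fold change of 0.51 ± 0.14 (adjusted p = 0.0029). At 6 h CYCD3;1 lay at 24.9, 24.7 and 19.2 CPM in replicates 1, 2 and 3 of stimulus leaves and at 28.8, 20.3 and 12.3 CPM in those of mock leaves. At 10 h it lay at 41.0, 38.7 and 33.5 CPM in stimulus leaves and at 23.7, 29.0 and 13.4 CPM in mock leaves. The groups overlapped at 6 h and were apart at 10 h. CYCD3;1 shares 40 bases with a neighbour on the same strand. CYCD1;1 (AT1G70210) had a log2 fold change of -1.22 ± 0.44 (adjusted p = 0.0216), with stimulus libraries between 0.202 and 9.61 CPM, median 5.05, and mock libraries between 7.45 and 13.5 CPM, median 9.56. The 5 stimulus libraries of replicate 3 all lay under 0.4 CPM, and no other library lay under 3.88 CPM. CYCD3;2 (AT5G67260) had a log2 fold change of -0.36 ± 0.11 (adjusted p = 0.0102). With replicate number as a block, which called 36.3% of tested loci higher and 32.9% lower, CYCD2;1 became a higher call (0.22 ± 0.05, adjusted p = 0.000457) and CYCD4;1 a lower one (-0.44 ± 0.08, adjusted p = 2.12e-05). With the same block on counts summed over the hours neither was called (adjusted p = 0.15 for CYCD2;1 and 0.0606 for CYCD4;1). On these sums CYCD6;1 was the only D-type cyclin gene called, with an adjusted p of 0.0362, or 0.0391 with the block. The adjusted p on the sums was 0.213 for CYCD3;1, 0.423 for CYCD1;1 and 0.248 for CYCD3;2, or 0.0741, 0.264 and 0.134 with the block. Replicates 1 and 2 alone, without the block, gave calls for CYCD2;1 (higher, adjusted p = 0.00186), CYCD3;3 (higher, adjusted p = 0.0492) and CYCD4;1 (lower, adjusted p = 2.12e-07). Without the identical columns CYCD4;1 was also called lower (-0.59 ± 0.20, adjusted p = 0.017).

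Both A3 cyclins, which act in S phase, and the kinase CDKA;1 were higher in stimulus leaves. CYCA3;1 (AT5G43080) had a log2 fold change of 1.14 ± 0.13 (adjusted p = 1.16e-07), and CYCA3;2 (AT1G47210) of 0.97 ± 0.10 (adjusted p = 3.51e-08). CDKA;1 (AT3G48750) lay between 33.5 and 57.6 CPM in stimulus libraries and between 26.0 and 39.2 CPM in mock libraries. Its log2 fold change of 0.37 ± 0.10 (adjusted p = 0.00309) was the smallest of the 27 higher genes, and its groups overlapped. On counts summed over the hours CDKA;1 was not called (adjusted p = 0.281, or 0.119 with the replicate block), while both A3 cyclins were.

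KRP1 and KRP2 were lower in stimulus leaves on average and at each of the 5 hours. KRP2 (AT3G50630) lay between 0.893 and 2.80 CPM in stimulus libraries, median 1.97, and between 3.69 and 5.92 CPM in mock libraries, median 4.95. No stimulus library reached the lowest mock library, and the log2 fold change was -1.49 ± 0.16 (adjusted p = 7.49e-08). KRP1 (AT2G23430) lay between 2.28 and 5.12 CPM in stimulus libraries and between 5.56 and 10.7 CPM in mock libraries, also without overlap, with a log2 fold change of -1.28 ± 0.11 (adjusted p = 2.08e-09). The call of KRP2 at 8 h (log2 fold change -1.12, adjusted p = 0.0409) was lost without any 1 of mock replicate 1, 2 or 3 at 8 h, stimulus replicate 1 or 3 at 8 h, or stimulus replicate 2 at 10 h, with adjusted p-values from 0.0527 to 0.195. Its call at 6 h was lost without mock replicate 3 at 6 h (adjusted p = 0.0584), without stimulus replicate 3 at 6 h (adjusted p = 0.103) or without both identical columns (adjusted p = 0.0674). Of the other 5 KRP genes, KRP5 and KRP6 were lower (-0.83 ± 0.15 and -0.77 ± 0.13), KRP7 was higher (0.22 ± 0.09), and KRP3 and KRP4 did not pass.

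Of the 4 E2F factors, 3 were higher in stimulus leaves and E2FB was not called (0.17 ± 0.09, adjusted p = 0.135) unless replicate number was a block (0.18 ± 0.06, adjusted p = 0.0126). With the block on counts summed over the hours E2FB was not called either (adjusted p = 0.273). E2FE (AT3G48160), also called DEL1, an atypical E2F known to hold back the endocycle, lay between 6.31 and 9.96 CPM in stimulus libraries, median 8.54, and between 2.26 and 5.70 CPM in mock libraries, median 3.91. The groups did not overlap, and the log2 fold change was 1.14 ± 0.10 (adjusted p = 4.2e-09). E2FC (AT1G47870), known as a repressor, had 0.94 ± 0.09 (adjusted p = 1.22e-08), and E2FA (AT2G36010), known as an activator, 0.66 ± 0.10 (adjusted p = 4.6e-06). Activator and repressor types were thus both among the higher genes.

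Fewer of the 36 genes were called at the later hours. At 6 h 21 were higher, against 6.03% of tested loci, at 7 h 24 (8.9%), at 8 h 21 (6.54%), at 9 h 13 (7.97%) and at 10 h 10 (9.74%). At each hour 2 were lower, KRP1 and KRP2, where the share of tested loci called lower was 3.84%, 8.14%, 6.39%, 8.55% and 9.34% from 6 to 10 h. With replicate number as a block, 24 were higher at 9 h, against 19.1% of tested loci, and 21 at 10 h, against 20.9%, so the fall in calls depended on the fit. Without the identical columns 17, 19, 22, 16 and 13 were higher from 6 to 10 h, against 4.47%, 7.52%, 6.83%, 8.27% and 9.52% of tested loci, and 1 was lower at 6 h, against 2.14%. With replicates 1 and 2 alone 25, 25, 26, 24 and 23 were higher, against 16.5%, 20.3%, 18.2%, 19.4% and 19.7%, and 4 were lower at 9 h and at 10 h, against 18.3% and 19.5%. The count at 9 h became 4, 6, 6 and 7 without mock replicate 3, mock replicate 1, stimulus replicate 1 and stimulus replicate 2 of that hour, and the count at 10 h became 6 without mock replicate 2. The genes called higher at all 5 hours were MCM3, ORC1B, ORC2, CDT1A, PCNA1, PCNA2, RNR1, E2FC and E2FE. Of the MCM genes 6 of 6 were called at 6, 7 and 8 h, and only MCM3 at 9 and 10 h.

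The sizes of the differences narrowed with the calls. The median log2 fold change over the 36 genes was 0.93, 0.93, 0.84, 0.52 and 0.46 from 6 to 10 h, and over all tested loci between 0.01 and 0.03. Of the 27 genes that were higher on average, 24 had a smaller log2 fold change at 10 h than at 6 h, as did 43% of all tested loci that were higher on average. The exceptions were CYCD6;1, CYCD3;1 and CDT1B. MCM7 had 1.12 at 6 h and 0.39 at 10 h, and MCM2 0.98 and 0.26. CYCD6;1 had 1.06 at 6 h and 2.15 at 10 h. The values at 6 and 7 h, medians included, rest in part on the mock library of unknown hour. Without the identical columns MCM7 had 0.98 at 6 h, 0.79 at 7 h, 0.90 at 8 h and 0.36 at 10 h. MCM2 then had 0.83, 0.70, 0.68 and 0.23 at these hours. MCM3 then had 0.82, 0.89, 0.94 and 0.51, and MCM6 0.85, 0.94, 1.12 and 0.41. MCM7 and MCM2 were thus highest at 6 h, and MCM3 and MCM6 at 8 h. E2FA then had 0.49 at 6 h and 0.53 at 10 h, and so joined the exceptions.

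The mean summed level of the MCM genes was highest at 8 h in stimulus leaves. In mock leaves this mean stood higher at each later hour, with the library of unknown hour under both 6 and 7 h. The 6 MCM genes together stood at 246.4 ± 35.8 CPM at 6 h, 277.9 ± 48.2 CPM at 8 h and 231.4 ± 20.3 CPM at 10 h in stimulus leaves (SD, n = 3). In mock leaves they stood at 122.6 ± 23.9 CPM at 6 h, 151.5 ± 15.3 CPM at 8 h and 176.5 ± 9.20 CPM at 10 h. The library of unknown hour had the lowest mock sum, 97.6 CPM. In mock replicates 1 and 2 MCM6 lay at 15.1 and 15.7 CPM at 7 h and at 11.8 and 13.1 CPM at 8 h. MCM6 therefore did not rise at each hour in these replicates. Of the 27 higher genes, 16 had a negative slope over the hours in stimulus leaves and 25 a positive slope in mock leaves. Without the identical columns the mock slopes of all 6 MCM genes were smaller, such as 0.09 ± 0.05 log2 units per hour for MCM2 against 0.13 ± 0.05. The mock slopes of POLA2, E2FA and CYCD3;1 then became negative, and the other higher genes kept their sign. No slope in stimulus leaves passed the test in edgeR, against 0.803% of tested loci with a positive and 0.214% with a negative call, and 1 of the 36 had an unadjusted p under 0.05. The slope in mock leaves passed it for PCNA2, at 0.23 ± 0.03 log2 units per hour (adjusted p = 0.0012), and for CYCA3;2, at 0.27 ± 0.05 (adjusted p = 0.0098), against 0.299% of tested loci with a positive call. With replicate number as a block, CYCD3;1 had a called positive slope in stimulus leaves (0.18 ± 0.04, adjusted p = 0.00808), against 3.75% of tested loci, and 12 of the 36 genes had one in mock leaves, against 1.95%. With replicates 1 and 2 alone, 1 of the 36 had a called positive slope in stimulus leaves and 4 a negative one, against 6.94% and 9.65% of tested loci. In mock leaves 14 had a positive slope and 2 a negative one, against 11.3% and 11.5%. The 2 slope calls in mock leaves became 1 without mock replicate 1 at 10 h and 4 without mock replicate 2 at 7 h.

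The test of the difference between the slopes, which uses the same mock libraries, called none of the 36 genes in edgeR over all 3 replicates, while 12 had an unadjusted p under 0.05 and DESeq2 called ORC1B and PCNA2. It called 0.019% of tested loci with a more positive and 0% with a more negative slope in stimulus leaves. The median difference was -0.11 log2 units per hour over the 36 genes and -0.01 over all tested loci, and it was negative in 30 of the 36. The lowest p-values were those of PCNA2, at -0.20 ± 0.05 per hour (adjusted p = 0.182), ORC1B, at -0.17 ± 0.04 (adjusted p = 0.246), MCM2, at -0.19 ± 0.07 (adjusted p = 0.626), and MCM5, at -0.16 ± 0.06 (adjusted p = 0.668). With replicate number as a block 4 genes passed, against 0.181% of tested loci: MCM2 (adjusted p = 0.0271), MCM4 (adjusted p = 0.0291), PCNA2 (adjusted p = 0.0362) and ORC1B (adjusted p = 0.0431), each with a lower slope in stimulus leaves. With replicates 1 and 2 alone 10 passed, each with a lower slope in stimulus leaves, against 4.46% of tested loci: MCM2, MCM4, MCM5, MCM6, MCM7, ORC1B, PCNA2, TSO2, CYCD4;1 and CYCA3;2. Without the identical columns PCNA2 passed (adjusted p = 0.0429), against 0.14%. Without the identical columns and with the block, MCM2, MCM4, PCNA2 and ORC1B passed, against 1.81% of tested loci, and CYCD3;1 passed with a higher slope (0.20 log2 units per hour, adjusted p = 0.0429), against 1.47%. The 4-degree interaction of treatment and hour called none of the 36 and 0% of tested loci, with 3 of the 36 at an unadjusted p under 0.05 in edgeR and none called in DESeq2. With replicates 1 and 2 alone it called MCM4, MCM5, MCM6 and CYCA3;2, 4 of the 36, against 2.83% of tested loci.

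The course of PCNA2, which had the lowest p for a difference of slopes, and of MCM2 shows the levels behind these slopes. At 6 h PCNA2 lay at 20.9, 22.6 and 24.1 CPM in stimulus leaves and at 10.0, 8.17 and 8.80 CPM in mock leaves. At 10 h it lay at 24.7, 23.7 and 29.2 CPM in stimulus leaves and at 16.1, 16.8 and 16.8 CPM in mock leaves. The treatments were apart at both hours, and the mock libraries stood higher at 10 h than at 6 h in all 3 replicates. MCM2 (AT1G44900) lay at 56.0, 52.0 and 43.2 CPM in stimulus leaves at 6 h and at 30.2, 26.7 and 19.9 CPM in mock leaves. At 10 h MCM2 lay at 49.8, 47.1 and 35.7 CPM in stimulus leaves and at 41.8, 38.3 and 30.6 CPM in mock leaves, so that the groups overlapped.

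**Figure D4:**
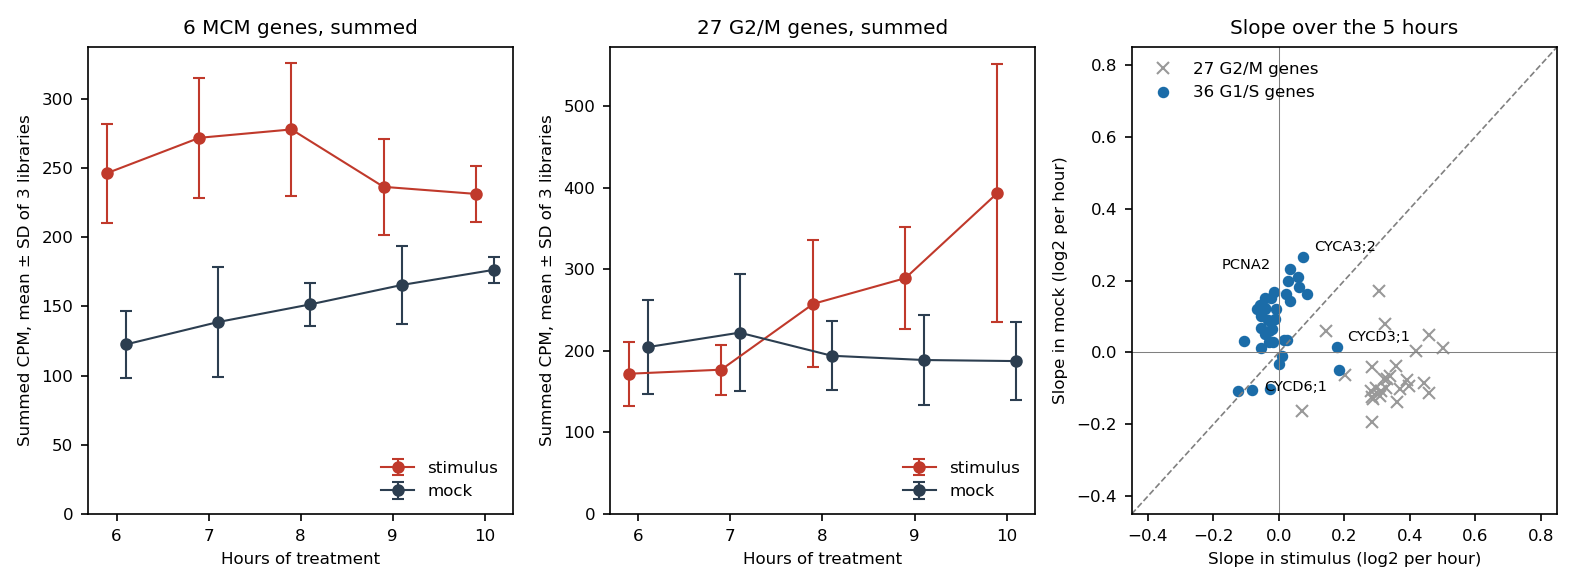
Left and middle, summed CPM of the 6 MCM genes and of 27 G2/M genes by hour, stimulus in red and mock in dark blue, points at the mean and bars of 1 SD over 3 libraries. Right, slope in log2 units per hour in stimulus leaves (horizontal) and in mock leaves (vertical) for the 36 genes (dots) and the G2/M genes (crosses); most dots lie above the dashed line of equal slopes and all 27 crosses lie below it.

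Genes of the later cell cycle are given for comparison, and their difference from the 36 genes was not tested as such. A list of 27 G2/M and cytokinesis genes, such as B-type cyclins and CDKB kinases, had 9 genes higher and 1 lower on average, with a median log2 fold change of 0.27. The 9 of 27 are a share near the 29.7% of all tested loci called higher. Together they stood at 172.0 ± 39.1 CPM in stimulus leaves and 204.6 ± 57.3 CPM in mock leaves at 6 h, and at 393.4 ± 158.0 CPM in stimulus leaves and 187.5 ± 47.5 CPM in mock leaves at 10 h. At 6 h none was called higher and at 10 h 15 were, against 9.74% of tested loci. The difference of slopes was positive in 27 of 27, with a median of 0.41 log2 units per hour, where the 36 genes had -0.11. None passed the test without the block, and 22 passed with it, where 1.06% of tested loci did. In the fit without the block the cytokinesis syntaxin KN (KNOLLE) had the lowest p of the list, with a difference of 0.41 ± 0.08 per hour (adjusted p = 0.0621). With the block CYCA1;1 had the lowest (adjusted p = 6.94e-05), and KN had an adjusted p of 0.000502. MAP65-3 had 0.57 ± 0.12 (adjusted p = 0.091) and CDKB2;1 0.42 ± 0.09 (adjusted p = 0.0955). The largest average log2 fold changes of the list were 1.11 for CDKB1;1, 0.96 for CYCA1;1, 0.89 for CDKB1;2, 0.80 for CDKB2;2 and 0.80 for CYCA2;4, and CYCA2;3 was the lower gene (-0.44 ± 0.12).

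Other genes of the same pathway were also mostly higher in stimulus leaves. Of 51 further G1/S and replication genes, CYCA3;3 was at 0 in every library, and of the 50 tested 39 were higher, 6 lower and 5 not called. Of all tested loci 29.7% were called higher and 27% lower. The median log2 fold change of the list was 0.54. The largest log2 fold changes were those of the single-stranded DNA-binding subunits RPA70D (1.32 ± 0.08), RPA32B (1.21 ± 0.08) and RPA70B (1.15 ± 0.09), the clamp loader subunit RFC2 (1.21 ± 0.08) and MCM10 (1.17 ± 0.10). RPA70D lay between 41.4 and 59.3 CPM in stimulus libraries and between 11.6 and 32.5 CPM in mock libraries, without overlap. The retinoblastoma-related gene RBR1, which encodes the brake on E2F factors, was also higher (0.43 ± 0.07, adjusted p = 1.04e-05). The 6 lower genes were the inhibitors SMR1 (-1.58 ± 0.11), KRP5, KRP6 and SIM (-0.81 ± 0.19) and the cyclins CYCD5;1 (-0.26 ± 0.08) and CYCD7;1 (-0.80 ± 0.28). SMR1 lay between 6.89 and 15.8 CPM in stimulus libraries and between 20.1 and 38.2 CPM in mock libraries. Of the 9 inhibitor genes of the KRP and SIM families on both lists, 6 were lower, 1 was higher and 2 did not pass, against the same 27% lower and 29.7% higher. No difference of slopes passed in this list. Its lowest p-values were those of RPA70D (-0.25 ± 0.05 per hour, adjusted p = 0.101), the MCM-binding factor ETG1 (-0.17 ± 0.05, adjusted p = 0.245) and RPA70B (-0.22 ± 0.06, adjusted p = 0.275). RPA70D and ETG1 passed with the block (adjusted p = 0.0169 and 0.0225). Of the positive differences, POLD4, DEL3 and DEL2 had the lowest p-values, all with an adjusted p of 1.

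Average effects in replicates 1 and 2 and in replicate 3 came from a fit with 1 library of replicate 3 per treatment and hour. Its estimate of the spread comes from replicates 1 and 2 alone, and the identical column enters it at both hours. The SEs therefore cover no spread among libraries like replicate 3, and only sizes of effects are given. The largest differences between the sets were those of CYCD1;1 and RNR2A, both lower in replicate 3. CYCD1;1 had a log2 fold change of -4.91 ± 0.27 in replicate 3 and -0.71 ± 0.11 in replicates 1 and 2. KRP2 had -2.39 ± 0.19 in replicate 3 and -1.15 ± 0.12 in replicates 1 and 2, while KRP1 had -1.35 ± 0.15 in replicate 3 and -1.26 ± 0.09 in replicates 1 and 2. CYCD6;1 had 0.92 ± 0.20 in replicate 3 and 1.92 ± 0.12 in replicates 1 and 2, and ORC1A had 1.88 ± 0.20 in replicate 3 and 0.97 ± 0.11 in replicates 1 and 2. CYCD3;3 had -0.17 ± 0.09 in replicate 3 and 0.13 ± 0.06 in replicates 1 and 2. Of the MCM genes MCM6 had the largest difference, at 0.66 ± 0.06 in replicate 3 and 0.94 ± 0.04 in replicates 1 and 2.

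**Figure D5:**
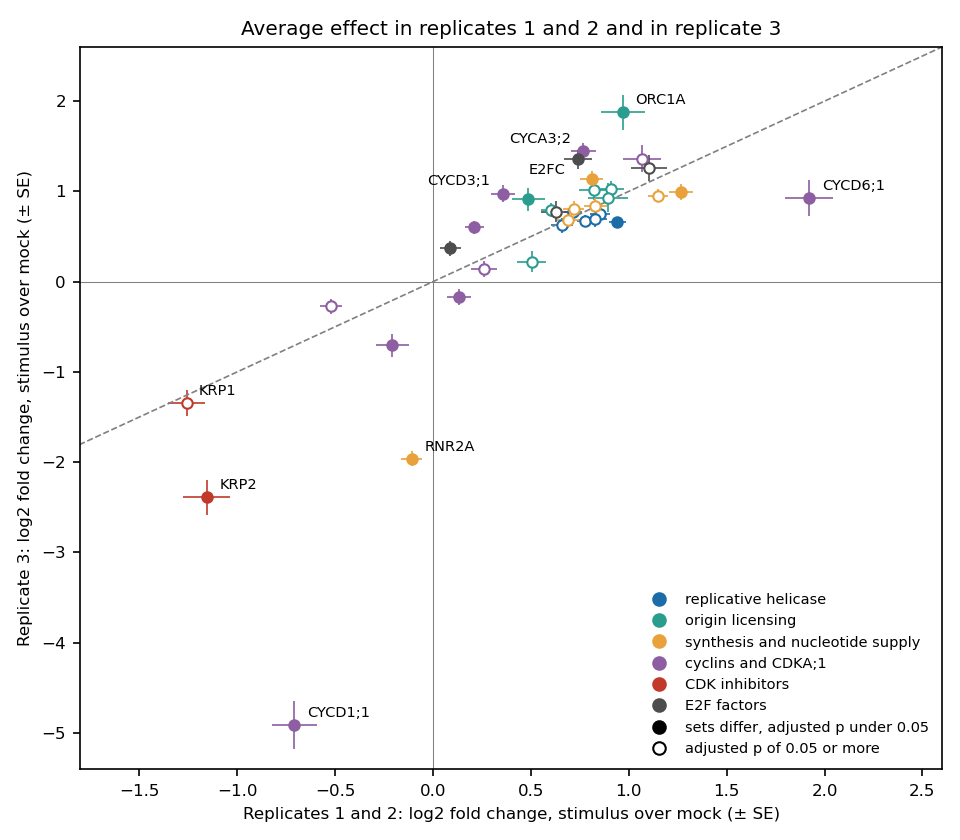
Average log2 fold change of stimulus over mock in replicates 1 and 2 (horizontal) and in replicate 3 (vertical) for the 36 genes, coloured by role, bars of 1 SE. Filled points passed the threshold in a fit with 1 library of replicate 3 per treatment and hour. Its spread comes from replicates 1 and 2 alone, so the fill is not read as a call. CYCD1;1, at -0.71 and -4.91, RNR2A and KRP2 lie furthest below the dashed line of equal effects, and ORC1A lies furthest above it.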

How the data were processed

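RNA was measured by sequencing of rRNA-depleted, stranded libraries from mock and stimulus leaves, 30 in all. The authors deposited raw read counts per locus, per the file headers. TAIR10 and BWA are named in the submitters' processing notes; for the counting tool and its strand setting, none of the sources used here gives a name. Names, exonic lengths and start-site windows came from TAIR10.1, matched by locus identifier (37751 of 38194 loci). The tests were run in edgeR 4.0.16 under R 4.3.3: filterByExpr, TMM, 1 mean per treatment and hour over all 30 columns, quasi-likelihood tests, Benjamini-Hochberg adjustment. SEs came from the fold change and its F statistic. The scripts were tested on simulated data. DESeq2 1.42.0, other filters and scalings, left-out libraries, counts summed over hours and a replicate block were alternatives. Replicate numbers were taken as pairs only in the fits with the block, and the main fit is unpaired. Deviations of same-numbered stimulus and mock libraries from their group means correlated at 0.158 to 0.486 in 15 of 15 pairs, above the limit of 0.1. The stimulus library correlated best with its own-numbered mock library in 9 of 15 cases, and in 4 of 10 for replicates 1 and 2, and the labels tie no number to a batch of plants. The p-values therefore cover the spread among these libraries, which may be partly technical. The 36 genes, the lists and the split by replicate were chosen with earlier results of these data known. Values per library are given for the largest call in each direction in every role and for the 4 lowest p-values in the difference of slopes; other values were chosen after they were seen. From the lists, up to 5 genes each way by average change and 3 by difference of slopes are named, and KRP7 and RBR1 besides. From the lists, 2 genes whose annotation did not name them were dropped. The start-site window of 1 licensing gene is not reported here.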

Additional observations from a re-analysis of the deposited data

How the results depend on the processing

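The count of genes higher on average was 27 in each of the 30 refits without 1 library, and the count of lower genes was 5 to 6. The counts by hour without 1 library were 14 to 22 higher and 1 to 2 lower at 6 h, 16 to 24 higher and 2 lower in each at 7 h, 16 to 22 higher and 1 to 2 lower at 8 h, 4 to 14 higher and 2 lower in each at 9 h, and 6 to 12 higher and 2 lower in each at 10 h; slope calls in mock leaves were 1 to 4. Counts summed over hours gave 16 higher and 2 lower, and 2 lower with the replicate block. With only the libraries of 1 hour, 5, 11, 9, 3 and 4 genes were higher from 6 to 10 h, and 0, 1 and 1 lower at 6, 8 and 9 h. The replicate block gave 24 higher at 9 h, 21 at 10 h, 4 differences of slopes, 1 slope in stimulus and 12 in mock leaves, and changed no call the other way. Without the identical columns, 17, 19, 22, 16 and 13 genes were higher from 6 to 10 h, 1 was lower at 6 h and 1 difference of slopes passed (PCNA2). With the block as well these were 24 higher at 9 h, 19 at 10 h, 5 differences of slopes, 1 slope in stimulus and 8 in mock leaves. With replicates 1 and 2 alone, 24 and 23 genes were higher and 4 and 4 lower at 9 and 10 h, and 10 differences of slopes, 5 slopes in stimulus leaves, 16 in mock leaves and 4 interactions passed. DESeq2 gave 2 differences of slopes and 4 slopes in mock leaves. Without the 6 h libraries 0 slopes in mock leaves passed and without the 10 h libraries 1. No count filter left 1 gene lower at 8 h. The replicate sets were also compared on summed counts, which leave 1 sum of replicate 3 per treatment, so no calls are given. No average of a called gene changed sign. The cause of these changes was not tested. For some of these fits, such as those without 1 library or with 1 hour, no share of all tested loci called is given here. Such counts show only how the calls depend on the fit, and not how these genes stand against other loci. A gene such as KRP2, near 1 CPM in some libraries, rests on few counts at 1 hour.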

Other observations

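Vascular markers moved in different ways in the same leaves. The 4 phloem markers summed to 162.4 to 241.5 CPM in stimulus libraries and 63.6 to 117.3 CPM in mock libraries, without overlap. They did not move alike. With replicate number as a block the average log2 fold change was 2.69 for BRX and 1.29 for SUC2. It was 0.36 for SEOR1 and 0.16 for APL. The 5 xylem vessel markers summed to 20.2 to 51.7 CPM in stimulus libraries and 25.2 to 50.9 CPM in mock libraries, and the ranges overlapped. In the fit with the block VND6 had -0.89 and IRX3 -0.41, while VND7, XCP1 and XCP2 had -0.04, -0.05 and -0.02. The 3 trichome markers summed to 1.74 to 6.88 CPM in stimulus libraries and 4.94 to 10.9 CPM in mock libraries. This sum is nearly all GL2, at 1.52 to 6.79 CPM in stimulus libraries and 4.37 to 10.6 CPM in mock libraries, since GL1 and TRY averaged under 0.5 CPM and were not tested.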
